A study of Mus musculus with 3 samples.

Results

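The gene bodies of Smyd3, Glis1, Ldlrad3, Plekha7, Ralgps1, Spire1, Fbln1, Crim1, Cbx7 and Kif27 carried more 5-methylcytosine (5mC) peaks in cardiomyocytes from sham-operated mice than in cardiomyocytes after pressure overload. They are 10 of the 21883 protein-coding genes in the RefSeq annotation used. They were chosen from this same contrast, by the upper bound of the exact interval around the share of their peaks that came from TAC, so their peak counts are a description and carry no test. A peak belonged to a gene when its midpoint lay between the annotated start and end. The 10 bodies span 1.95 Mb and held 312 of 135886 Sham peaks and 171 of 162107 TAC peaks. A Sham-only peak is one that no TAC peak overlapped by even 1 bp, and a shared peak is one that was overlapped.

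The study used methylated DNA immunoprecipitation (MeDIP-seq), in which an antibody against 5mC pulls down methylated fragments for sequencing. The Sham group was cardiomyocytes of male C57Bl6/J mice, 8 weeks old per the labels, after an operation without constriction. The TAC group was cardiomyocytes of mice of the same strain, sex and labelled age after 1 week of pressure overload by transverse aortic constriction. Each group was 1 library, so nothing below has a replicate check and no p-value is given. An Input library without antibody entered the authors' peak calling only. How many animals went into a library was not stated in the labels. The data are DNA enrichments, so the labelled cell type could not be checked against expressed markers.

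Cytosine methylation in mammals sits mostly at CG dinucleotides. CG-dense gene starts are usually unmethylated, whereas the bodies of genes are usually methylated, and body methylation accompanies transcription in many cell types. A MeDIP peak marks a stretch where methylated fragments were enriched over input. It depends on how many methylated CG sites lie together and is not a methylation level.

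Total tags numbered 12585289 for Sham and 14658177 for TAC, and 29.9% and 34.7% of them fell within peaks. The calling threshold was 11 tags for Sham and 12 for TAC. Per 10000000 total tags these are 8.74 and 8.19, so TAC was called at slightly lower enrichment. Over all protein-coding gene bodies the TAC list held 51.7% of the peaks of both libraries together. The deposited lists give no signal per peak. Their row order falls into blocks that read as descending tag numbers, and the value of a block is called the inferred tag number here. Neither the labels nor the headers state this reading. All comparisons of peak strength rest on it.

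No peak lay on the start windows that RefSeq gave for these genes. RefSeq start windows of 300 bases (250 upstream and 50 downstream of a start) were matched for 7 of the 10 genes, in 8 windows. None of the 8 was overlapped by a Sham or a TAC peak. At the same time 4.89% of all 32851 windows were overlapped in Sham and 4.86% in TAC, so 8 windows are too few to set the genes apart. The windows held 47 CG dinucleotides at Glis1, 33 at Cbx7, 31 at Crim1, 27 at Ralgps1, 15 at Ldlrad3, 12 and 24 at the Fbln1 starts and 2 at Kif27. The median of all windows was 7. The upstream stretches of 3 windows are printed to show how CG-dense and CG-poorer starts of these genes read: the densest, at Glis1 (chr4:107434469-107434718, plus strand), Cbx7 (chr15:79932647-79932896, minus strand) and the lower Fbln1 start (chr15:85205699-85205948, plus strand). They are RefSeq sequence of GRCm38.p6, read 5′ to 3′ toward the start, with each CG in capitals (41, 23 and 7 in these 250 bases).
Glis1: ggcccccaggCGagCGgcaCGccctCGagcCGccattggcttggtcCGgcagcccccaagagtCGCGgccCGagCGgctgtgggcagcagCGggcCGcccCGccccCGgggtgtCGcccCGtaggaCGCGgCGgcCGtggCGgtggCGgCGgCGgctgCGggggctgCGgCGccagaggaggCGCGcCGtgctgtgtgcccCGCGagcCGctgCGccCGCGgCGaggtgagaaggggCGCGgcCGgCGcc
Cbx7: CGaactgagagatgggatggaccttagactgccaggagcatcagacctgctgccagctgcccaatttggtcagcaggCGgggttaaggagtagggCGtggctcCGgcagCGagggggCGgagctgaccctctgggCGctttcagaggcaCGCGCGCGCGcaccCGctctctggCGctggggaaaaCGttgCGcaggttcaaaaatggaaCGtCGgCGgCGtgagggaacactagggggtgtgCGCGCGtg
Fbln1: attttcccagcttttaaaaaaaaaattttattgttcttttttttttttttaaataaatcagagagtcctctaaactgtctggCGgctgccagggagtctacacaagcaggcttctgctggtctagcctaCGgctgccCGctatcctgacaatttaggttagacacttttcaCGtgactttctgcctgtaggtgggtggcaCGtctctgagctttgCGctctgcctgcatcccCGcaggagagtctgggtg

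The nearest peak lay at a similar distance from the start in both libraries for 5 of the 7 genes. It was 0.868 kb (Sham) and 0.855 kb (TAC) away at Ralgps1, 1.08 and 1.10 kb at Ldlrad3, and 1.75 and 1.74 kb at Glis1. It was 5.18 and 5.36 kb away at Crim1 and 8.88 and 8.96 kb at Kif27. At the lower Fbln1 start the nearest Sham peak was 2.47 kb and the nearest TAC peak 4.90 kb away. At Cbx7 these distances were 7.34 and 16.3 kb. The printed Cbx7 start lies 38.5 kb inside the annotated body, the Glis1 start 8.08 kb and the Kif27 start 9.80 kb, so longer annotated forms of these genes begin elsewhere. Peaks near an annotated end of the body were few and were found in both libraries except at Glis1 and Cbx7, whose lower ends had a Sham peak within 1 kb and no TAC peak within that distance. A Sham peak reached across the lower annotated end of Glis1, and a TAC peak across the upper end of Cbx7, which are the outer ends on the side of their starts.

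Pooled over the 10 bodies, 165 of the 312 Sham peaks (52.9%, exact 95% interval 47.2 to 58.5) were Sham-only and 147 were shared. Over all protein-coding bodies the Sham-only share was 36.2%. Of the 171 TAC peaks, 23 were TAC-only, against a share of 40.1% over all protein-coding bodies. The TAC share of all peaks was 35.4% (31.1 to 39.9). The intervals cover counting error only, and neighbouring peaks are not independent. Because the genes were chosen for a low TAC share, nothing is read from these differences. Of the 3596 protein-coding genes with at least 10 peaks, 1410 (39.2%) had more Sham than TAC peaks, and in 7 the upper bound of the TAC share was below 50%. Those 7 were Spire1, Ralgps1, Ldlrad3, Fbln1, Glis1, Plekha7 and Dock9, the last not among the 10. Just inside the choice lay Kif27 with 9 Sham and 2 TAC peaks (upper bound 51.8%). Plcb4, ranked next, had 38 and 24 (51.9%) and is also not among the 10, and then came Col6a1 and Fam83g with 5 and 0 each (52.2%).

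**Figure D1:**
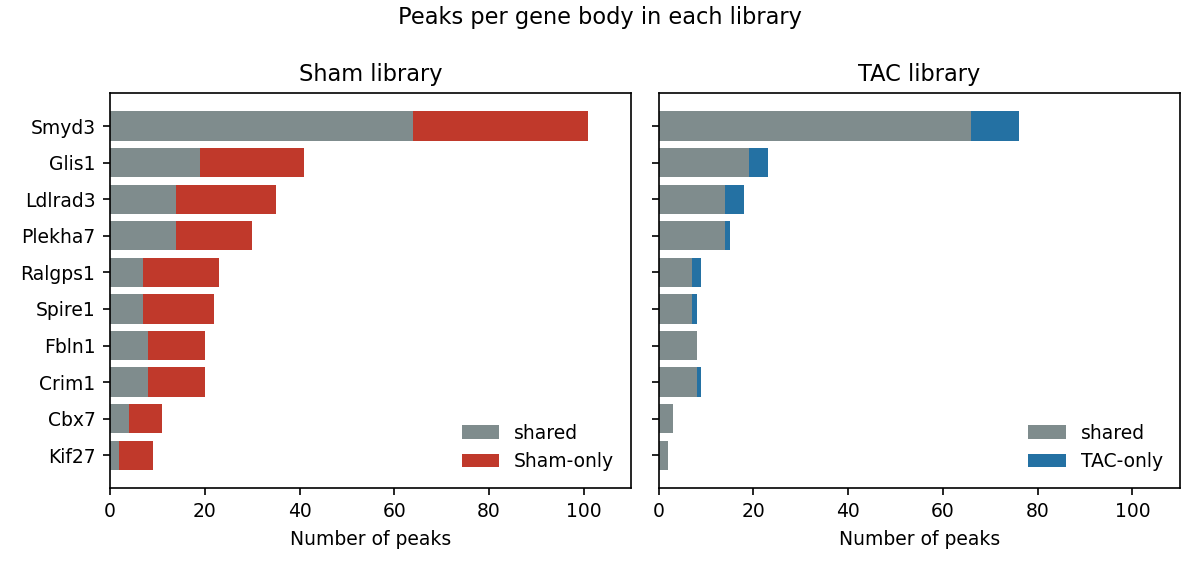
Number of peaks with midpoint in each gene body (x axis) in the Sham library (left) and the TAC library (right), split into shared and library-only peaks. The shared bars are nearly equal in both libraries, from 64 and 66 at Smyd3 to 2 and 2 at Kif27, and the Sham-only bars run from 37 to 7 while the TAC-only bars run from 10 to 0.

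Smyd3, Glis1 and Cbx7 encode regulators of chromatin and transcription. Smyd3 is a lysine methyltransferase of the SET and MYND domain family. Its body on chromosome 1 (178951960 to 179518053, 566 kb) held 101 Sham peaks, 37 of them Sham-only, and 76 TAC peaks, 10 of them TAC-only. The Sham-only share of 36.6% (27.3 to 46.8) was near the 36.2% of all protein-coding bodies, whereas the TAC-only share was 13.2%. Smyd3 thus entered the choice with an ordinary share of Sham-only peaks and few TAC-only peaks. Its Sham-only peaks began 1.36% into the body and ended at 97.2%. Of these, 10 lay in the lowest of 5 equal stretches of the gene and 5 in the highest, and no more than 3 followed each other without a shared peak between them. A stretch of 61.8 kb between neighbouring Sham-only midpoints, from 60.4% to 71.3% of the body, held shared peaks but no Sham-only peak.

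Glis1 encodes a zinc finger transcription factor related to the GLI proteins. The gene lies on chromosome 4 (107426636 to 107635061, 208 kb). It held 41 Sham peaks (22 Sham-only) and 23 TAC peaks (4 TAC-only). The 5 stretches of the gene held 4, 4, 6, 5 and 3 Sham-only peaks. The middle of the gene, from 107518509 to 107543786, had no TAC peak over 25.3 kb and 5 Sham-only peaks, whose inferred tag numbers were 12, 19, 11, 12 and 12. These 5 are at or slightly above the Sham threshold except for the second.

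Cbx7 encodes a chromodomain subunit of Polycomb repressive complexes. The body on chromosome 15 (79915804 to 79971143, 55.3 kb) held 11 Sham peaks (7 Sham-only) and 3 TAC peaks, all shared. The lower 59.9% of the body had no TAC peak over 33.2 kb and 4 Sham-only peaks with 12, 28, 16 and 13 inferred tags. In the upper part a wide TAC peak (79955286 to 79957767, 124 inferred tags) covered the place of a pair of Sham peaks with 61 and 57 inferred tags. The Cbx7 body is overlapped by Apobec3, an antiviral cytidine deaminase gene, and 1 Sham-only peak lay in the overlap.

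Fbln1, Crim1 and Ldlrad3 encode proteins of the extracellular matrix and the cell surface. Fbln1 encodes fibulin 1, a matrix and basement membrane glycoprotein. Over its 80.3 kb on chromosome 15 (85205949 to 85286294) there were 20 Sham peaks (12 Sham-only) and 8 TAC peaks, all shared. Its density of 14.9 Sham-only peaks per 100 kb was the highest of the 10 genes. They started 18.6% into the gene, and all 12 had another Sham-only peak within 10 kb. Between 85220062 and 85237167 there were 4 Sham-only peaks with 22, 33, 21 and 15 inferred tags and no TAC peak over 17.1 kb. The median Sham-only peak of Fbln1 had 20.5 inferred tags, the same as its shared Sham peaks.

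Crim1 encodes a transmembrane protein with cysteine-rich repeats that binds bone morphogenetic proteins. The 176 kb body on chromosome 17 (78200233 to 78376592) carried 20 Sham peaks (12 Sham-only) and 9 TAC peaks (1 TAC-only). The gene was divided: from 78278953 to 78365250, 86.3 kb or 48.9% of the body, there was no TAC peak and there were 7 Sham-only peaks in a row. Their inferred tag numbers were 18, 24, 11, 17, 28, 13 and 13. Of the 8 Sham peaks of Crim1 that were shared, 7 lay in the lower 43.5% of the body, and the strongest had 132 inferred tags in Sham against 156 in TAC. Fez2 overlaps the upper end of the body, and no peak lay in the overlap.

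Ldlrad3 encodes a membrane protein of the low-density lipoprotein receptor class A domain family. On chromosome 2 (101950201 to 102186460, 236 kb) the gene carried 35 Sham peaks (21 Sham-only) and 18 TAC peaks (4 TAC-only). The 5 stretches of the gene held 5, 5, 4, 5 and 2 Sham-only peaks. Among the stretches of Ldlrad3 without a TAC peak, the one with the most Sham-only peaks was 102087346 to 102111288, where 23.9 kb held 5 of 17, 11, 22, 18 and 11 inferred tags.

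Plekha7, Ralgps1, Spire1 and Kif27 encode proteins of cell junctions, small GTPase signalling and the cytoskeleton. Plekha7 encodes a protein of the zonula adherens with a pleckstrin homology domain. The body spans 185 kb of chromosome 7 (116123485 to 116308383) and held 30 Sham peaks (16 Sham-only) and 15 TAC peaks (1 TAC-only). Of the 16 Sham-only peaks, 12 lay in the lower 40% of the body and none in the middle stretch. A 50 kb window from 116129555 to 116176513 held 10 of them (62.5%) in 27.0% of the gene's length, together with 4 TAC peaks. The other 4 were spread singly between 61.2% and 92.5% of the body.

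Ralgps1 encodes a guanine nucleotide exchange factor for Ral GTPases. On chromosome 2 (33133419 to 33371499, 238 kb) it carried 23 Sham peaks (16 Sham-only) and 9 TAC peaks (2 TAC-only). Its Sham-only peaks came in groups: 3 between 4.75% and 10.4% of the body, 3 between 32.2% and 33.8%, and 6 between 57.4% and 75.8%. Between 33182548 and 33240190, 57.6 kb without a TAC peak, the second of these groups had 16, 11 and 11 inferred tags. Angptl2, which encodes a secreted angiopoietin-like protein, lies within the body and held 1 Sham and 1 TAC peak, both shared.

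Spire1 encodes an actin nucleator. The gene covers 125 kb of chromosome 18 (67488209 to 67612810) and held 22 Sham peaks (15 Sham-only) and 8 TAC peaks (1 TAC-only). Its TAC share of 26.7% (12.3 to 45.9) had the lowest upper bound of all protein-coding genes. It had the longest series, 9 Sham-only peaks in a row without a shared Sham peak between them, from 67495058 to 67546753. The first 6 lay in 26.4 kb without a TAC peak. It also had the strongest Sham-only peaks of the 10 genes: 67605886 to 67607395 (1510 bp, 71 inferred tags) and 67513651 to 67515312 (1662 bp, 61 inferred tags). No TAC peak lay within 1.44 kb of the first and 3.69 kb of the second. The other 13 Sham-only peaks of Spire1 had 10 to 21 inferred tags.

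Kif27 encodes a kinesin motor protein related to Kif7. Its 80.02 kb on chromosome 13 (58284727 to 58364745) carried 9 Sham peaks and 2 TAC peaks. Both TAC peaks were shared and lay at the ends of the body, at 4.93% and 99.3%. Between them 74.98 kb, 93.7% of the body, had no TAC peak and 7 Sham-only peaks, with 23, 11, 15, 26, 13, 12 and 10 inferred tags in order of position. The median distance of these 7 to a TAC peak was 18.9 kb, the largest of the 10 genes. The lncRNA gene Gm26555 overlaps the lower part of the body, and 3 of the 7 lay in the overlap.

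**Figure D2:**
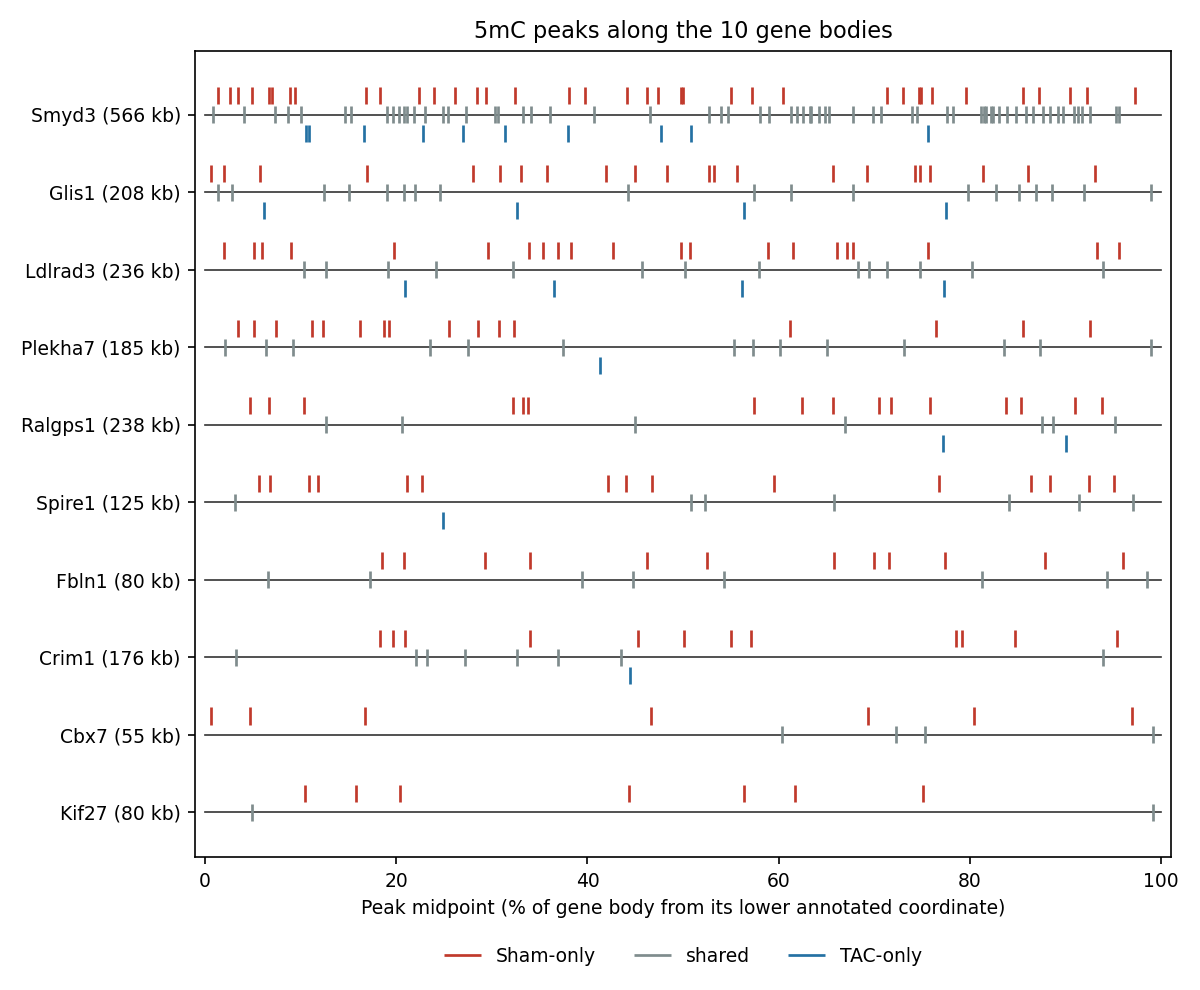
Position of every peak along the 10 gene bodies, as the midpoint in percent of the body from its lower coordinate (x axis), with 1 line per gene. Upper ticks are Sham-only, ticks on the line are shared (Sham position), and lower ticks are TAC-only. Sham-only ticks lie along most of each line, and Kif27, Crim1 and Cbx7 show long parts without a TAC peak.

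Sham-only peaks lay along the whole of most bodies. From the lower to the upper end, the 5 equal stretches held 42, 32, 31, 34 and 26 Sham-only peaks, 26, 28, 20, 30 and 43 shared Sham peaks, and 30, 36, 26, 32 and 47 TAC peaks. In 7 genes every stretch had a Sham-only peak, and in Plekha7, Cbx7 and Kif27 4 of the 5 had one. The order of Sham-only and shared counts was opposite at the ends, with more Sham-only peaks in the lowest stretch and more shared peaks in the highest. Smyd3 alone gave 20 of the 43 shared peaks of the highest stretch. For the 7 genes whose strand was known, stretches were also counted from the body end on the side of the start. In that order 97 Sham-only peaks fell as 15, 22, 20, 20 and 20 along the gene, and shared Sham peaks as 15, 17, 9, 6 and 15. The opposite order at the ends was thus seen by chromosome coordinate and not from the start side. Smyd3 is not among these 7 genes.

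Most Sham-only peaks had a neighbour of the same kind. Of the 165, 138 (83.6%, 77.1 to 88.9) had another Sham-only peak of the same gene within 10 kb, midpoint to midpoint, and of the shared Sham peaks 112 of 147 (76.2%) had another shared peak at that distance. In other protein-coding genes with at least 2 Sham-only peaks the share was 49.3%, and for shared peaks it was 66.6%. The 10 genes were chosen for an excess of Sham peaks, by counts that include shared peaks, so both differences are descriptions. These shares were not adjusted for the density of peaks in a gene. The median spacing of neighbouring Sham-only peaks ran from 4.21 kb in Spire1 to 10.3 kb in Smyd3. Of the 302 pairs of neighbouring Sham peaks, 90 were both Sham-only, 69 both shared and 143 mixed. The share of mixed pairs was lowest in Kif27 (2 of 8) and Crim1 (7 of 19) and highest in Plekha7 (18 of 29). These counts move with the mix of kinds, which was 7 Sham-only to 2 shared Sham peaks in Kif27, 12 to 8 in Crim1 and 16 to 14 in Plekha7. The longest series of Sham-only peaks was 7 in Kif27 and in Crim1 and 5 in Plekha7.

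Sham-only peaks were weak as a class. The row fraction, the place of a peak in the Sham list from 0 at the strongest to 1 at the weakest, had a median of 0.653 (quartiles 0.400 and 0.810) for the 165 Sham-only peaks and of 0.243 for the 147 shared ones. Over all protein-coding bodies these medians were 0.684 and 0.339. In inferred tags the medians were 15 for Sham-only and 30 for shared peaks of the 10 genes. The first 50% of its rows held 59 of the 165 (35.8%), against 27.0% of the Sham-only peaks of all protein-coding bodies, and the last 25% held 64 (38.8% against 40.8%). Only the 2 Spire1 peaks lay in the first 10% of the list, where 37 of the 147 shared peaks lay. Of the Sham-only peaks of the whole Sham list, 0.46% lay in that first 10%. A width of 501 bp, the most frequent in the Sham list, was found for 119 of the 165 (72.1% against 76.7%). The gene medians of the row fraction ran from 0.434 in Fbln1 and 0.483 in Plekha7 to 0.768 in Kif27, 0.774 in Cbx7 and 0.781 in Spire1. The last 3 genes had the same median of 13 inferred tags, and rows of equal tag number are ordered by chromosome, so their order holds no difference in strength.

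**Figure D3:**
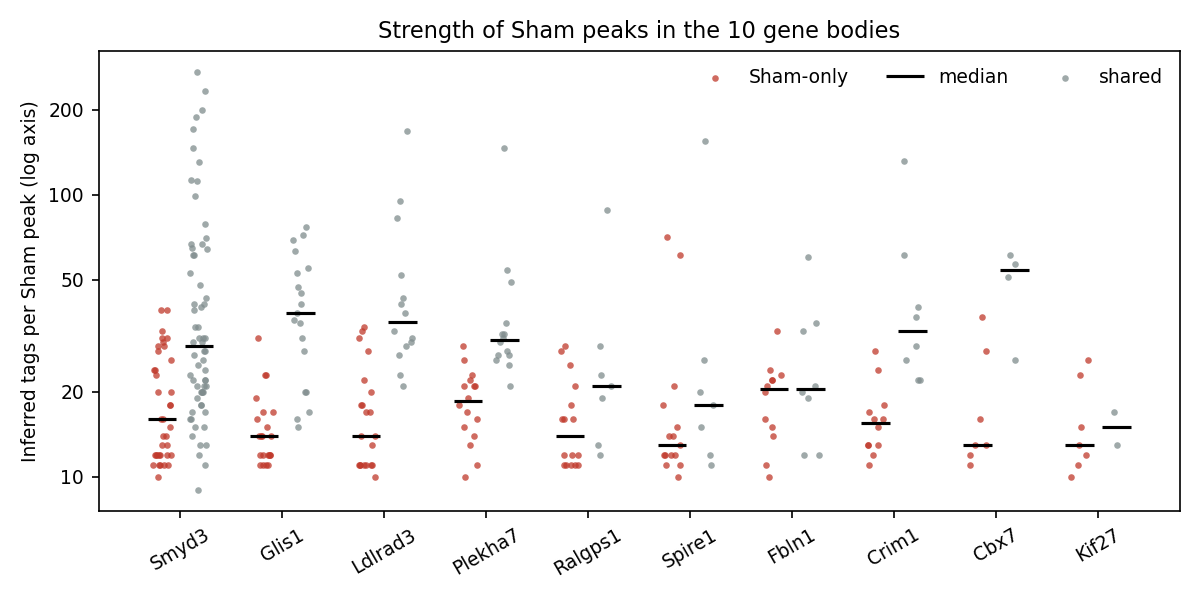
Inferred tag number (y axis, log scale) of each Sham peak in the 10 gene bodies, with Sham-only and shared peaks side by side for each gene and the median as a bar. Sham-only medians lie between 13 and 20.5 tags, shared medians between 15 and 54, and the 2 Spire1 peaks of 61 and 71 tags stand above all other Sham-only peaks.

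Few Sham-only peaks were near misses of the overlap rule. The gap to the nearest TAC peak was within 1 kb for 24 of the 165 (14.5%), against 13.4% of the Sham-only peaks of all protein-coding bodies. The median gap was 3.63 kb. The smallest gaps were 23 bp at Smyd3 (179167175 to 179167675, 12 inferred tags, beside a TAC peak of 15), 37 bp at Fbln1 (85247893 to 85248393, 11 inferred tags, beside a TAC peak of 63) and 134 bp at Smyd3 (179435749 to 179436516, 29 inferred tags, beside a TAC peak of 64). No Sham-only peak of Ralgps1 or Kif27 was within 1 kb of a TAC peak.

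The shared peaks of the 10 genes held fewer scaled tags in TAC on the median, and the TAC peaks were more often the narrower ones. Overlapping Sham and TAC peaks formed 145 groups, of which 140 were a single pair. Scaled to 10000000 total tags, 98 of the 145 groups (67.6%) had fewer inferred tags in TAC, against 48.8% of the groups of all protein-coding bodies. The median log2 ratio of TAC to Sham was -0.26 (quartiles -0.73 and 0.14), against 0.01 over all protein-coding bodies, and equal raw tags give -0.22. A log2 ratio below -1 was found in 22 groups (15.2% against 6.55%) and above 1 in 5 (3.45% against 7.36%). The ratios are sums over peaks called separately in each library. The TAC peaks were narrower in 72 groups, wider in 37 and equal in 36, and 21 of the 22 groups below -1 had narrower TAC peaks. No such count over all protein-coding bodies is given here, so whether the widths set the 10 genes apart was not tested. Over all 145 groups the Sham peaks covered 130 kb and the TAC peaks 112 kb. Per kb covered, and per 10000000 total tags, they held 40.6 and 37.1 inferred tags. Shared peaks also entered the TAC share that chose the genes, so these values are a description and no separate support.

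Fewer scaled tags in TAC were found in 15 of 19 groups of Glis1 (median -0.56), 45 of 63 of Smyd3 (-0.32), 10 of 14 of Ldlrad3 (-0.47), 10 of 14 of Plekha7 (-0.24), 5 of 7 of Ralgps1 (-0.22), 5 of 8 of Crim1 (-0.24) and 2 of 3 of Cbx7 (-0.15). In Spire1 2 of 7, in Fbln1 3 of 8 and in Kif27 1 of 2 groups were lower, with medians of 0.20, 0.03 and 0.16. These 3 genes had fewer TAC peaks, while their shared peaks were not weaker in TAC on the median. The longest series of neighbouring groups with fewer scaled tags in TAC was in Smyd3: 14 groups between 179411009 and 179460394, 49.4 kb, with 1633 inferred tags in Sham and 1015 in TAC, 7 of them below -1. It was found by its values. The peaks of this series covered 31.3 kb in Sham and 19.8 kb in TAC. It holds the lowest ratio of the 10 genes, at 179425155 to 179428313. There a Sham peak of 3159 bp had 171 inferred tags and a TAC peak of 645 bp had 19 (-3.39), or 54.1 and 29.5 unscaled tags per kb. The widest Sham peak, 179449008 to 179454882 (5875 bp), had 273 inferred tags against 87 in a TAC peak of 2023 bp (-1.87). Unscaled, these are 46.5 and 43.0 tags per kb. The ratios compare regions of unequal length. Unlike the ratios, the per kb values of these peaks are not scaled to total tags, which were more numerous in TAC. In Glis1 the groups at 107610695 to 107611972 (41 tags in 1278 bp and 12 in 501 bp, -1.99) and 107632054 to 107633609 (45 in 1556 bp and 14 in 634 bp, -1.90) were the lowest.

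**Figure D4:**
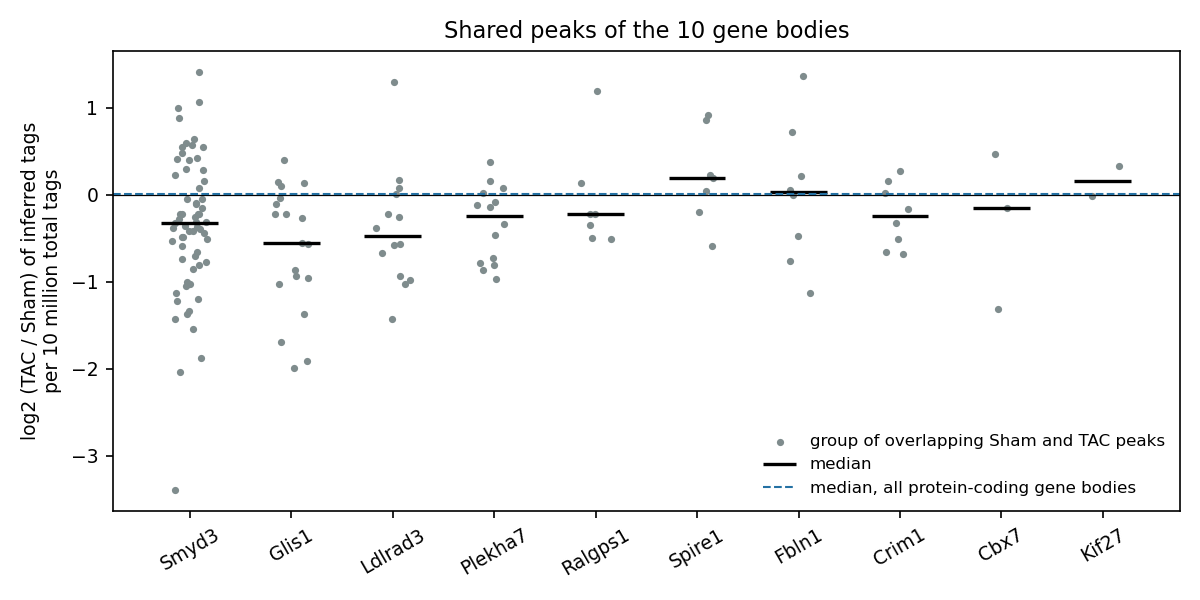
Log2 ratio of TAC to Sham inferred tags per 10000000 total tags (y axis) for each of the 145 groups of overlapping peaks, by gene, with the gene median as a bar and the median of all protein-coding bodies (0.01) dashed. Most points of Smyd3, Glis1 and Ldlrad3 lie below 0, down to -3.39 in Smyd3, and most points of Spire1 and Fbln1 lie above it.

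The flanks of the genes held similar numbers of peaks in both libraries. In the 500 kb on each side of the 10 genes the lists had 866 peaks for Sham and 884 for TAC. TAC thus gave 50.5% (48.1 to 52.9), against 51.7% over all protein-coding bodies and 54.4% over the whole lists. Like the flanks, the whole lists take in sequence between genes. The flank counts were 173 and 173 up to 100 kb, 252 and 284 from 100 to 250 kb, and 441 and 427 from 250 to 500 kb. The Sham-only share of the flanks was 33.3%. In density, the bodies held 15.997 Sham and 8.77 TAC peaks per 100 kb and the flanks 8.66 and 8.84. The pooled TAC density of the bodies rests on Smyd3, without which it was 6.86. Single genes differed. TAC peaks were sparser in the body than in the flanks in some, for example at Ralgps1 (3.78 against 10.1 per 100 kb), Cbx7 (5.42 against 11.1) and Kif27 (2.50 against 10.3), and denser in others, for example at Smyd3 (13.4 against 8.60). Sham peaks were denser in the body in 8 genes, for example at Plekha7 (16.2 against 4.40), and not at Ralgps1 (9.66 against 10.3) or Kif27 (11.2 against 12). The genes were chosen by their bodies, so the step between body and flank is a description.

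Within 20 kb of the gene ends the counts were 71 Sham and 27 TAC peaks on the inner side and 43 and 37 on the outer side. Single flanks had TAC shares from 46.2% at Kif27 (120 Sham and 103 TAC peaks) to 60.8% at Ldlrad3 (49 and 76, 51.7 to 69.4). The flanks of Ldlrad3 held more TAC peaks on both sides, 29 Sham and 40 TAC peaks below the gene and 20 and 36 above it, opposite to its body. Plekha7 was next with 44 and 63 (58.9%, 49.0 to 68.3). The shared groups of the flanks had fewer scaled tags in TAC in 47.3% of 573 cases. This was 48.8% over all protein-coding bodies and 43.8% over the whole lists.

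**Figure D5:**
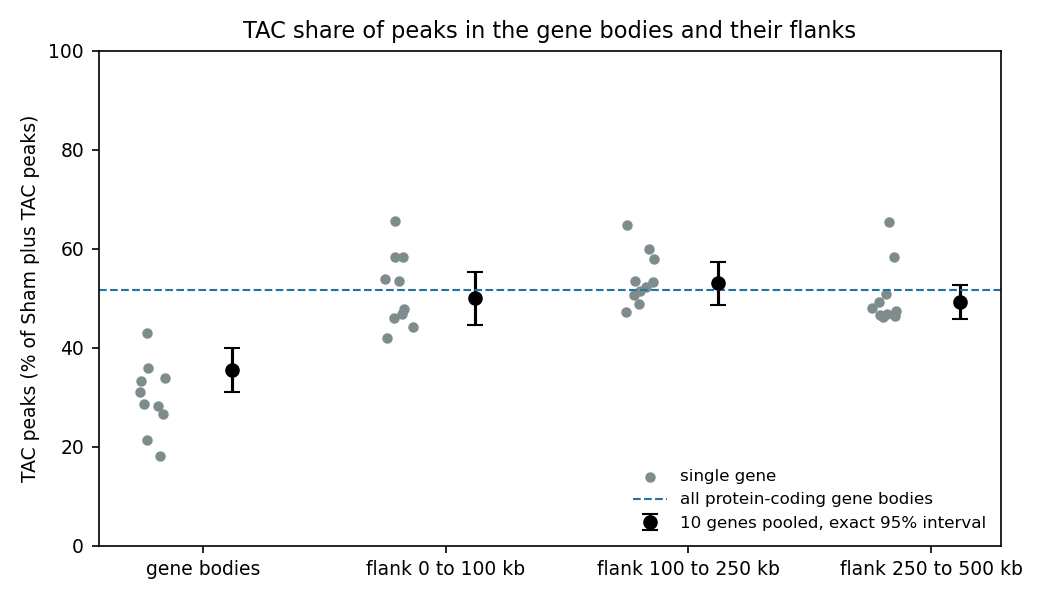
TAC peaks as a percentage of Sham plus TAC peaks (y axis) in the gene bodies and in 3 zones of the flanks, for single genes (grey points) and for the 10 genes pooled (black points with exact 95% intervals, counting error only). The pooled share is 35.4% in the bodies and 50%, 53.0% and 49.2% in the flank zones, and the dashed line marks the 51.7% of all protein-coding bodies.

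The counts were also taken at other thresholds. These are subsets of the lists that chose the genes, so the direction is set by the choice. At nearly equal scaled thresholds (Sham peaks of 11 or more inferred tags and TAC peaks of 13 or more, which scale to 8.74 and 8.87) the 10 bodies held 305 Sham and 160 TAC peaks. In the first 75% of rows of each list they held 239 and 145. At 20 or more inferred tags per 10000000 they held 117 and 71, while the whole lists held 42597 and 50844. At this last threshold 9 of the 10 genes had at least 4 Sham peaks, and all 10 had more Sham than TAC peaks, Spire1 and Fbln1 with 4 and 3 each and Kif27 with 1 and 0.

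Relatives of the 10 genes held similar numbers of Sham and TAC peaks in sum. Of 26 relatives, listed by family, 25 bodies had a peak, with 158 Sham and 161 TAC peaks in all (TAC share 50.5%, 44.8 to 56.1). More Sham peaks were found in 11, more TAC peaks in 8 and equal numbers in 6, and 34.8% of their Sham peaks were Sham-only. Glis3, another GLI-similar factor, held 21 Sham and 26 TAC peaks. Ldlrad4 held 27 and 29, Bmper, which encodes a secreted regulator of bone morphogenetic protein signalling, 17 and 19, Fbln2 13 and 11, and Plekha6 12 and 11. Ralgps2, the closest relative of Ralgps1, held 11 and 7, with 5 Sham-only peaks. Smyd1, the muscle member of the Smyd family, held 1 and 1.

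Marker genes of the cell types that a cardiac isolate can hold gave no excess of Sham peaks in cardiomyocyte genes. Myh6, Tnnt2, Actn2, Ryr2 and Ttn together held 31 Sham and 51 TAC peaks, of which 6 and 26 were library-only. Ryr2 alone gave 20 and 31 of them, with 4 and 15 library-only. Over all protein-coding bodies 36.2% of Sham and 40.1% of TAC peaks were library-only. Fibroblast genes held 7 and 11, endothelial genes 23 and 20, smooth muscle genes 10 and 13 and immune genes 4 and 8. Peak counts in gene bodies are not expression, and the part of other cells in the values above was not tested.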

How the data were processed

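Peak lists of 2 of the 3 labelled samples were used, 1 Sham and 1 TAC library, and Input was not analysed here beyond the authors' peak calling. Reads were processed with BWA 0.7.4-r385, Picard and HOMER 4.5 on mm10, per the submitters' processing notes. The authors called peaks in each library against a shared input with HOMER in its histone mode, per the file headers, at a peak size of 500 bp, with 1000 bp as the minimum distance and at least 4-fold over input at a Poisson p of 1e-04. The score column the authors deposited is 1 for every peak and ranks nothing.

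Rows run through 352 blocks in Sham and 414 in TAC, sorted by position within a block. With 8 tags in the last block and 1 more in each block before it, the values sum to 99.3% of the tags in peaks that each header gives, and 3.25% of rows in each list fall below the header's threshold. This inferred tag number was used to describe strength.

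Gene bodies came from RefSeq (GRCm38.p6). Its table gives no exons and no genome was used, so exons, introns and sequence under peaks were not analysed here. Strand came from RefSeq start windows, matched for 7 of 10 genes. Intervals are exact (Clopper-Pearson, 95%). No test was possible with 1 library per group. The genes and the lists were chosen with earlier results of these data known. Named genes are the 10, their 26 listed relatives, listed cell type markers, overlapping genes, and the next genes in the order of choice. Alternatives varied the overlap rule, threshold, gene borders, flank width, distances and left-out genes. Scripts ran in Python 3.11.15 with pandas 2.3.3 and scipy 1.17.1 and were tested on simulated data.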

Additional observations from a re-analysis of the deposited data

How the results depend on the processing

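Of 73 recomputed values, each a result under 1 alternative, 63 stayed within the interval around the reported value. The alternatives reuse most of the same peaks, and cut lists or other distances change the quantity itself. This tally is therefore no measure of robustness. For the median row fraction this interval was 0.566 to 0.721. Keeping the first 75% of rows of each list gave a median row fraction of 0.425, 65.8% of Sham-only peaks with a Sham-only neighbour within 10 kb and 8.77% with a TAC peak within 1 kb. With the TAC list reduced by order to the Sham number of rows, the TAC share of the flanks was 47.7%. A neighbour distance of 5 kb gave 51.5% and one of 20 kb gave 97.0%. A gap of 500 bp gave 3.03% and one of 2 kb gave 29.7%. Leaving out Smyd3, the longest gene, gave a Sham-only share of 60.7% and a TAC share of 31.0%. Leaving out any of the 10 genes in turn gave 51.6 to 60.7% for the Sham-only share, 31.0 to 36.0% for the TAC share and 82.4 to 86.7% for neighbours within 10 kb. No paired analysis was possible because each group is 1 library. With a tag threshold of 11 or 12, a peak absent from one list and a region just under that threshold cannot be told apart.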
